A study of Mus musculus with 16 samples.

Results

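The Notch modulators and nuclear cofactors described here are 10 mouse genes, *Lfng*, *Mfng*, *Rfng*, *Pofut1*, *Rbpj*, *Maml1*, *Maml2*, *Maml3*, *Numb* and *Numbl*, out of 21911 protein-coding genes. Their peaks were chosen by position: a listed ATAC-seq peak belonged to a gene when the gene had the protein-coding transcription start site nearest to the centre of the peak (GENCODE basic annotation, mm10). This gave 98 of the 80367 listed peaks. ATAC-seq reads the accessibility of chromatin to the Tn5 transposase.

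The tumors were small cell lung cancer (SCLC) from *TKO;Hes1 GFP/+* mice, in which floxed *Rb*, *p53* and *p130* were deleted in both cell groups by an adenovirus with Cre under a CMV promoter, given into the airways. That promoter is not restricted to a cell type. GFP stood in place of 1 *Hes1* allele, so GFP high cells were those with an active *Hes1* locus (non-NE) and GFP neg cells were the neuroendocrine (NE) cells. Tumors of a mouse were pooled, some months after infection, and cells were sorted after staining for CD45, CD31, TER-119 and CD24. There were 4 pairs of GFP high and GFP neg samples from 3 mice, 1 mouse giving 2 pairs as a technical replicate, and each of the 8 libraries was run on 2 lanes (16 runs). The strain and exact age were not given in the labels used here.

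The lists hold peaks that differed between the groups in the authors' comparison: peaks more accessible in GFP high cells are called opened and peaks less accessible there are called closed. Peaks that did not pass the authors' limits were not analysed here, so a gene without a listed peak may still have accessible chromatin. Which list a peak is in is the contrast itself, so the counts below are a description without a test. In sorted bulk samples, fewer cells of a type and less accessibility per cell cannot be told apart.

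Notch receptors are cleaved after they bind a ligand on a neighbouring cell, and the freed intracellular domain enters the nucleus. There it joins RBPJ, the DNA-binding protein of the pathway, and a Mastermind-like coactivator (MAML1, MAML2 or MAML3) that recruits histone acetyltransferases. POFUT1 puts O-linked fucose on the receptor, and the Fringe enzymes LFNG, MFNG and RFNG extend that fucose and so change which ligands the receptor answers to. NUMB and NUMBL are endocytic adaptors that hold Notch signaling down. In the lung, Notch signaling restrains the NE fate and favors club cells.

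By nearest protein-coding start, each of the 10 genes had at least 1 listed peak. Both kinds of peak were found at *Lfng*, *Rbpj*, *Maml2* and *Maml3*, opened peaks alone at *Rfng*, *Pofut1*, *Maml1* and *Numb*, and closed peaks alone at *Mfng* and *Numbl*. Thus 8 of 10 genes had an opened peak, beside 52.2% of all protein-coding genes, and 6 of 10 had a closed peak, beside 42.0% of all. Of the 98 peaks, 47 were opened and 51 closed, an opened share of 48.0% (Wilson 95% interval 38.3 to 57.7, for counting error only). The share over all listed peaks was 50.8%, inside that interval. *Maml3* gave 50 of the 98 peaks. Without *Maml3*, a grouping chosen after its values were seen, 29 of 48 peaks were opened (60.4%, interval 46.3 to 72.98).

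**Figure D1:**
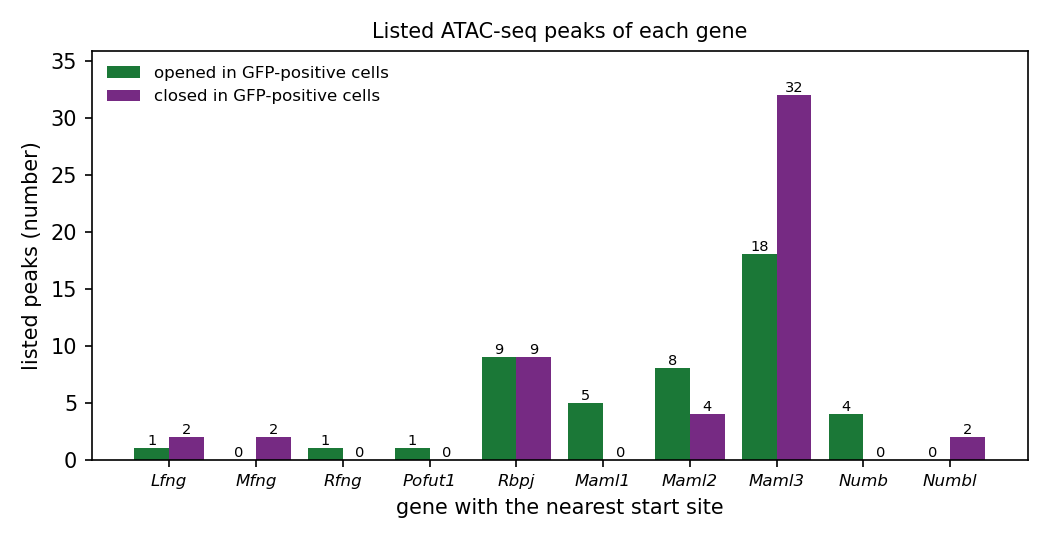
Number of listed ATAC-seq peaks (vertical axis) of each of the 10 genes (horizontal axis), with opened peaks in green and closed peaks in purple. *Maml3* holds 18 opened and 32 closed peaks, *Rbpj* 9 of each, and *Maml1* 5 opened and 0 closed.

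The stretch of the genome that lies nearest to a gene's start sites differed in size. It was 458 kb for *Maml3*, 271 kb for *Maml2*, 238 kb for *Rbpj* and 10.3 kb for *Rfng*. Per 100 kb of it, *Maml1* had 11.5 listed peaks, *Maml3* 10.9, *Rfng* 9.69, *Rbpj* 7.57, *Lfng* 7.15 and *Maml2* 4.43, and the lowest density was 3.00 at *Numb*. Over the genome there were 2.95 listed peaks per 100 kb. By number of peaks, *Maml3* ranked 26 among the 21911 genes, of which 29 had at least 50.

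Centres of the 98 peaks lay in an intron for 67 peaks (68.4%), between genes for 21 (21.4%), within 1 kb of a start site of any gene type for 7 (7.14%) and in another exon for 3. Among all listed peaks 46.8% were intronic, 33.6% intergenic and 16.1% promoter peaks. Without *Maml3*, 23 of 48 peaks were intronic (47.9%) and 39.6% intergenic. The median distance to the nearest protein-coding start was 32.4 kb for both the opened and the closed peaks of the 10 genes, beside 17.5 kb for all opened and 42.4 kb for all closed peaks. It was 17.6 kb over the 48 peaks without *Maml3*.

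Height was read from the authors' mean over all libraries of the normalized count of each peak, which carries no SD or n. It had a median of 33.7 for the 47 opened and 26.1 for the 51 closed peaks, beside 40.7 and 25.8 for all opened and all closed peaks. Opened peaks had a median width of 286 bp and closed peaks 235 bp, beside 300 and 248 bp over the lists. Per 100 bp of peak, the median mean count was 12.3 in opened and 10.8 in closed peaks of the 10 genes, beside 14.4 and 10.8 over the lists.

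Promoter peaks were peaks of a gene with a centre within 1 kb of its own start. *Maml1* and *Maml3* had 1 opened promoter peak each, 2 of 10 genes beside 26.6% of all protein-coding genes, and *Mfng* had 1 closed promoter peak, 1 of 10 beside 8.43% of all. A further 2 opened peaks were centred at a start of *Pofut1* and of *Rfng* but lay nearer to a neighbour's start, so they were not counted for these genes. The first, chr2:153241122-153241723 (mean count 413.6), is 110 bases from a *Pofut1* start and 3 from that of *Plagl2*. The second, chr11:120784057-120784774 (mean count 282.0), is 209 bases from the *Rfng* start and 99 from that of *Gps1*. Counted whatever the nearest start, a rule added after seeing the data, 4 of 10 genes had an opened peak at a start, beside 28.7% of all protein-coding genes, and 1 of 10 a closed one, beside 8.65%. The starts of *Lfng*, *Rbpj*, *Maml2*, *Numb* and *Numbl* had no listed peak centred within 1 kb.

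The enzymes that modify the receptor had 7 listed peaks, 3 opened and 4 closed. The balance turned to more opened than closed peaks within 10 kb of a start, inside gene bodies and at a mean count of at least 50. *Lfng* had 1 opened peak in its intron 1 (chr5:140610743-140610956, mean count 66.0), 3.53 kb past its start. It also had 2 closed peaks, 1 at 10.2 kb before the start and the higher 1 at chr5:140622559-140622954 (mean count 55.9), which lies past the end of *Lfng* in an exon of the neighbouring gene *Ttyh3*. *Mfng* had closed peaks only. The *Mfng* promoter peak, in intron 1 at chr15:78772576-78772656, was 81 bp wide with a mean count of 8.40, and the other, past the gene's end at chr15:78750344-78750654, had a mean count of 19.0. *Rfng* had 1 opened peak, chr11:120776079-120776399, between genes past its end, with a mean count of 85.6. That peak lies 7.97 kb from the start of *Rfng* and 8036 bases from that of *Gps1*, so its assignment is close to a tie. *Pofut1* had 1 opened peak centred in its last annotated exon, exon 7 (chr2:153269958-153270326, mean count 16.2).

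Neighbouring peaks gave a setting for these counts. Within 1 Mb of the *Mfng* start, 150 of 177 listed peaks of other genes were opened (84.7%), whereas both *Mfng* peaks were closed. Around *Lfng* the share was 71.0%, around *Pofut1* 76.7% and around *Rfng* 89.2%. Chromosome 11, which carries *Rfng* and *Maml1*, had 71.1% opened peaks, and chromosome 3, which carries *Maml3*, had 41.7%. The part of these regional shares in the counts of single genes was not tested.

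*Rbpj* had 9 opened and 9 closed peaks, and 53 of the 106 peaks of other genes within 1 Mb were opened. The balance depended on assignment, with 1 opened and 4 closed peaks when start sites of any gene type competed and 0 and 3 within 10 kb of a start. A further 3 opened peaks inside *Rbpj* were nearest to *Cckar* and were not counted. Most lay upstream, in the intergenic stretch out to 119 kb before the first start site, which held 8 opened peaks and 5 closed ones. The highest was a closed peak at chr5:53436837-53437359 (mean count 174.8). The highest opened peak, chr5:53481006-53481370, lay 74.6 kb before the start (mean count 130.0). Close to the first start of *Rbpj*, 3 closed peaks lay in intron 1 at 1.91, 2.32 and 3.04 kb, all low, with mean counts of 20.5, 10.2 and 21.0. Opened and closed peaks were interspersed along the upstream stretch, and no promoter peak was listed.

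The Mastermind-like genes differed from each other. *Maml1* had 5 opened and 0 closed peaks, *Maml2* 8 and 4, and *Maml3* 18 and 32, so that 18 of 50 peaks were opened at *Maml3* (Wilson interval of the share 24.1 to 49.9%). Among *Maml3* peaks with a mean count of at least 50 the direction turned, with 10 opened and 4 closed, and at that limit 64.4% of all listed peaks were opened. *Maml2* turned too, with 1 opened and 2 closed peaks when start sites of any gene type competed, and had 2 of each within 10 kb of a start. The *Maml1* promoter peak, chr11:50291537-50292692, was 1156 bp wide, covered exon 1 and the start site, and had a mean count of 613.5. The other 4 *Maml1* peaks lay in intron 1, between 5.67 and 17.5 kb from the start, inside an antisense gene, with mean counts from 11.4 to 36.1. Within 1 Mb of *Maml1*, 53.2% of the listed peaks of other genes were opened, lower than over chromosome 11.

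*Maml2* had most of its opened peaks in intron 1, 7 of 8. The highest was chr9:13323208-13324105 (898 bp, mean count 229.0), 25.7 kb past the first start. The highest closed peak, chr9:13563463-13564567, also lay in intron 1 and was 1105 bp wide with a mean count of 248.6. A closed peak of mean count 34.4 stood 1.60 kb before the first start. A further 5 listed peaks inside *Maml2* were nearest to *Gm17571*, a protein-coding gene within it, and were not counted for *Maml2*. Within 1 Mb of its first start, 15 of 36 listed peaks of other genes were opened (41.7%).

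*Maml3* showed an order along the gene. The transcript runs over 419 kb, and 45 of its 50 peaks lay inside it. A further 4 peaks inside *Maml3*, 1 opened and 3 closed, were nearest to *Mgst2* and are left out of the counts along the gene. They lie at the far end of the gene from the first start. In the stretch nearest the first start (0 to 25% of the length) 7 peaks were opened and 4 closed, from 25 to 50% there were 5 and 4, from 50 to 75% 3 and 9, and from 75 to 100% 2 and 11. Opened peaks had their median place 30.3% of the way along the gene, closed ones 71.0%. Over all listed peaks, too, opened ones lay nearer to a protein-coding start, at a median of 17.5 kb against 42.4 kb for closed ones. Of the *Maml3* peaks, 13 opened and 12 closed were in intron 1, and 3 and 16 in intron 2, which contains the second annotated start. Before the first start there were 1 opened and 4 closed peaks.

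Opened peaks of *Maml3* were also the higher ones, with a median mean count of 63.4 inside the gene against 22.3 for closed peaks. All opened and all closed listed peaks had 40.7 and 25.8. The highest peak of all 10 genes was the opened peak chr3:52101958-52102917 in intron 1 (960 bp, mean count 676.6), 2.64 kb past the start. The opened *Maml3* promoter peak, chr3:52104816-52105188, covered the start and part of exon 1 and had a mean count of 296.9. The highest closed peak, chr3:51798760-51799143 in intron 2, had a mean count of 74.9 and lay 2.42 kb before the second start. The neighbours of *Maml3* within 1 Mb were 35.7% opened, close to the share of *Maml3* itself.

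**Figure D2:**
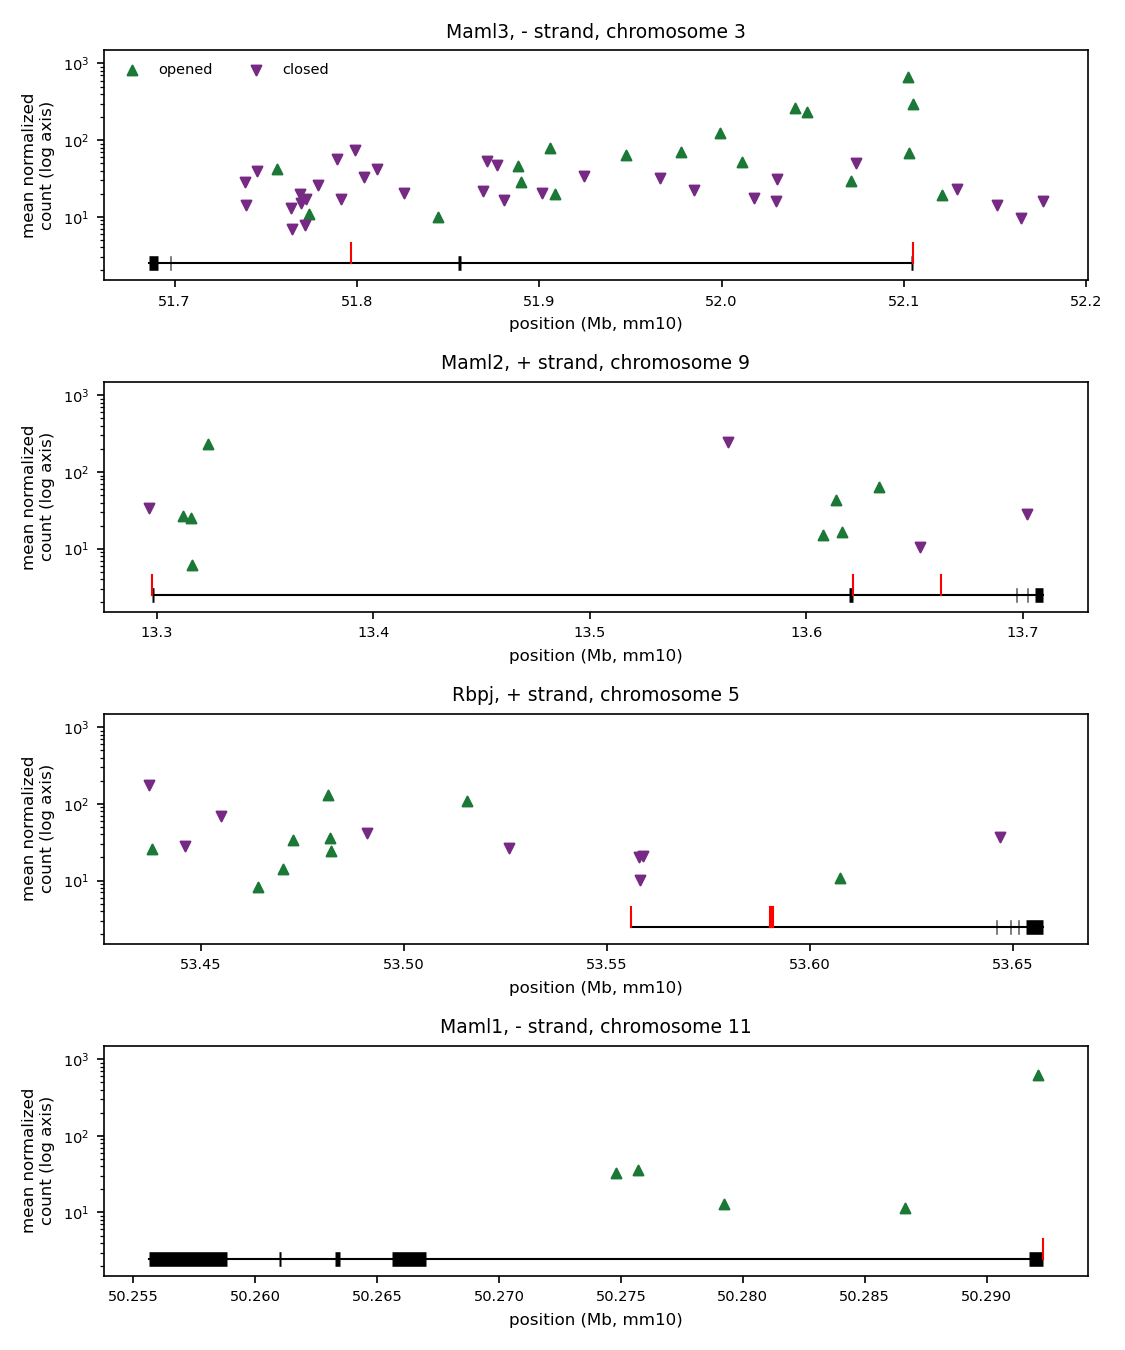
Maps of *Maml3*, *Maml2*, *Rbpj* and *Maml1*: position on mm10 in Mb (horizontal axis) against the authors' mean normalized count of each listed peak (vertical axis, log scale), with opened peaks as green triangles pointing up and closed peaks as purple triangles pointing down. The black line is the gene span, black blocks are exons of the longest transcript and red lines are start sites. At *Maml3* the 11 closed peaks of the stretch from 75 to 100% of the gene stand left and the promoter peak of mean count 296.9 right.

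*Numb* had opened and *Numbl* closed peaks only, and *Numbl* had 0 peaks when start sites of any gene type competed or when the gene body was used. *Numb* had 4 opened peaks, 3 of them in introns, the highest at chr12:83882566-83882851 in intron 1 (mean count 41.5), and 1 at 4.45 kb before the first start. On chromosome 12, 43.2% of listed peaks were opened, but within 1 Mb of *Numb* the share was 77.8%. *Numbl* had 2 closed peaks. The higher, chr7:27257055-27257289, stood 1.55 kb before its start (mean count 66.4), inside annotated spans of *Coq8b* and of an antisense gene, and the other lay 33.2 kb past the start. Within 1 Mb of *Numbl* 54.4% of peaks were opened.

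The promoter peaks are shown because they bear on the starts of the genes, as the 300 bases before the start for *Maml1* (chr11:50292312-50292611, minus strand), whose peak reaches further out, as the part of the peak before the start for *Maml3* (chr3:52105077-52105188, minus strand) and whole for *Mfng* (chr15:78772576-78772656, minus strand, intron 1). All are on GRCm38 (mm10), 5′ to 3′ on the strand of the gene. Capitals mark exact matches, on either strand, to 8 motifs: RBPJ (TGGGAA), TEAD (CATTCC), AP-1 (TGANTCA), forkhead (TGTTTAC), E-box (CAGCTG), NKX2 (CACTTGA), NFI and CTCF. 1 match, an E-box, was found in these stretches, in that of *Maml3*. Outside the stretches shown, the *Maml1* promoter peak has an RBPJ core and the *Maml3* promoter peak a forkhead string.
Maml1 promoter peak: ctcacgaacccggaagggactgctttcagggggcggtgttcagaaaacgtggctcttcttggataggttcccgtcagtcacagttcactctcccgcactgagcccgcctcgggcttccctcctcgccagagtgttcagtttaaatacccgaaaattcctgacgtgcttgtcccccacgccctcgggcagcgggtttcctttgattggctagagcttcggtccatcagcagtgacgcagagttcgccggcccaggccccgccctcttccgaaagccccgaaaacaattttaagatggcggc
Maml3 promoter peak: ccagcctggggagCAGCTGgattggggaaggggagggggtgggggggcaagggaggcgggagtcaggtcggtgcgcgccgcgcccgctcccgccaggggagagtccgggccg
Mfng promoter peak: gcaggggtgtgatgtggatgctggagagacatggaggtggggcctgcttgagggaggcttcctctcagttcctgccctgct
The *Maml1*, *Maml3* and *Mfng* promoter peaks had a G and C content of 67.5%, 71.3% and 61.7%, beside a median of 49.6% over the 98 peaks.

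In 200 bp windows centred on the 98 peaks the RBPJ core was found for 11 (11.2%, interval 6.38 to 19.0), against 18.5% of all listed peaks. These windows reached past the ends of narrower peaks. It was in 7 of 47 opened (14.9%) and 4 of 51 closed peaks (7.84%), beside 20.7% and 16.3% over the lists. The TEAD core was in the windows of 12 of 47 opened (25.5%) and 4 of 51 closed peaks (7.84%), where all opened and all closed peaks had 18.2% and 8.77%. The 12 include an *Rbpj* peak 73 bp wide whose match lies outside the peak. AP-1 went the other way, with 5 of 47 opened (10.6%) and 12 of 51 closed peaks (23.5%), beside 10.6% and 26.4% over the lists. The forkhead string was in the windows of 12.2% of the 98 peaks, the E-box in 16.3% and NKX2 in 9.18%, beside 8.25%, 17.2% and 5.87% of all listed peaks. Some of these forkhead and NKX2 matches lay past the ends of narrow peaks. NFI and CTCF strings were in 0 of 98, and in 0.0709% and 0.198% of all peaks.

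The longer RBPJ string GTGGGAA, which contains the core, was found anywhere in the peak in 4 of the 98 peaks (4.08%), beside 7.45% of all listed peaks, and these stretches are printed because they hold the longer string. They are an intron 1 peak of *Maml2* (chr9:13564342-13564442, plus strand, closed), an intron 2 peak of *Maml3* (chr3:51756343-51756443, minus strand, opened), an intron 1 peak of *Maml3* (chr3:52011139-52011239, minus strand, opened) and an intron 1 peak of *Rbpj* itself (chr5:53607429-53607511, plus strand, opened). In the intron 2 peak of *Maml3* the match overlaps an NKX2 string, and the peak of *Rbpj* also has a TEAD core. Beyond its printed stretch, the intron 2 peak of *Maml3* has TEAD cores too. The closed *Maml2* peak also has TEAD, AP-1, forkhead, E-box and NKX2 strings, none wholly inside its printed stretch.
Maml2 closed peak: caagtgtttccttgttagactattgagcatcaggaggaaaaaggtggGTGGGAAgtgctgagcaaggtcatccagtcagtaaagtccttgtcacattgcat
Maml3 opened peak: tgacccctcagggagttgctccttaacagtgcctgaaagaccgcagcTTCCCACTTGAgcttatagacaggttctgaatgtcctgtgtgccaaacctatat
Maml3 opened peak: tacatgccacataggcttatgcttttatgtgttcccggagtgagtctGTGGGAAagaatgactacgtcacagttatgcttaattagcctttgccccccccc
Rbpj opened peak: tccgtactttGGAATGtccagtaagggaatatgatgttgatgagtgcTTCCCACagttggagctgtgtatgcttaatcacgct
In capitals TTCCCAC is the same string read from the other strand. A match is a description of letters and not a binding site.

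The highest opened peaks of *Maml2* (chr9:13323513-13323613, plus strand) and *Maml3* (chr3:52102575-52102675, minus strand), both in intron 1, are shown around their RBPJ core. In that of *Maml2*, 2 TEAD cores and an AP-1 string lie within the same 101 bases, and a TEAD core overlaps the RBPJ core.
Maml2 opened peak: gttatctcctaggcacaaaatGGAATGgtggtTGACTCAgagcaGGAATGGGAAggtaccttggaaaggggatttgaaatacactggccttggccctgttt
Maml3 opened peak: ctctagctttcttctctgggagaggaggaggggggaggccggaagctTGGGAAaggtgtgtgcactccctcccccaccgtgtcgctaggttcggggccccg

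Other genes of the pathway were counted the same way, from lists covering receptors to cofactors. Over all protein-coding genes, 52.2% had an opened and 42.0% a closed peak, and 50.8% of all listed peaks were opened. Of the 4 receptors, 3 had an opened and 2 a closed peak, and 34 of their 45 peaks were opened (75.6%, interval 61.3 to 85.8). *Notch1* and *Notch2* had 13 opened peaks each, and closed peaks numbered 6 at *Notch2* and 5 at *Notch4*. Ligands went the other way, with 18 of 61 peaks opened (29.5%, interval 19.6 to 41.9). *Dner* had 16 and *Dll1* 14 closed peaks, whereas *Jag1* had 13 opened and 7 closed and *Dll4* 2 and 1. For the effectors, 45 of 76 peaks were opened (59.2%, interval 48.0 to 69.6) and 31 closed. *Hes1* gave 26 of the opened and 11 of the closed ones. Without it, a grouping chosen after seeing the data, opened peaks did not outnumber closed ones. *Nrarp* had 7 opened peaks and *Hey1* 13 closed. One allele of *Hes1* carries the sorting reporter.

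In the corepressor list 13 of 14 genes had an opened peak and 6 a closed peak, beside 52.2% and 42.0% of all protein-coding genes. Of the 169 peaks 102 were opened (60.4%, interval 52.8 to 67.4), beside 50.8% of all listed peaks. *Tle3* had 27 opened and 5 closed peaks, *Tle4* 17 and 24, and *Tle1* 7 and 16. Coactivators had 7 peaks, 4 of them opened, including 1 at *Ep300* and 2 at *Kat2b*, and closed peaks at *Kat2b* and *Crebbp*. In the cleavage list 14 of 19 peaks were opened, 4 each at *Psen2* and *Adam17* and 3 at *Adam10*, with 3 closed at *Psen2* and 2 at *Adam10*. Ubiquitin ligases and endocytic factors had 38 opened of 82 peaks (46.3%, interval 36.0 to 57.1). Of these, 14 opened were at *Neurl1b* and 10 at *Fbxw7*, and 16 closed each at *Neurl1a* and *Fbxw7*. Of the other glycosylation genes, *Pofut2* had 3 opened and 8 closed peaks and *Poglut1* 0.

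Marker genes were set beside the labels of the sorted cells. The paper reported lower RNA of NE genes and higher RNA of club genes, *Rest*, *Yap1* and *Wwtr1* in GFP high cells. The markers are therefore not an independent check. Over all protein-coding genes, 52.2% had an opened and 42.0% a closed peak, and 26.6% had an opened and 8.43% a closed promoter peak. Of 10 NE genes, 8 had closed and 2 had opened peaks, and 65 of 76 peaks were closed, with closed promoter peaks at 8 of the 10. *Insm1* alone had 28 of the closed peaks, and *Chga* had 8 opened and 6 closed. No listed peak was nearest to *Syp* or *Dll3*. All 6 club cell genes had opened peaks and an opened promoter peak, with 42 of 52 peaks opened, and of the 6 non-NE SCLC genes 5 had opened peaks, 56 of 73 being opened, with 0 at *Vim*. *Hes1*, the locus of the sorting reporter, gave 26 of these opened peaks, and without it, a grouping chosen after seeing the data, 30 of 36 peaks were opened. *Hes1* and *Notch2* are in both the non-NE list and the pathway lists.

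Genes of other cell types also had listed peaks. Set beside them, 52.2% of all protein-coding genes had an opened and 42.0% a closed peak, and 50.8% of all listed peaks were opened. The sort's stains included markers of leukocytes, endothelium and erythroid cells. The paper's methods imply that cells bearing them were selected out. Of 8 leukocyte genes, 5 had an opened and 2 a closed peak. They had 16 opened and 7 closed peaks, 11 of the opened ones at *Ptprc*, with 0 listed at *Itgam*. Of 4 erythroid genes, 3 had an opened and 0 a closed peak. They had 14 opened peaks, 8 of them at *Tfrc*, with 0 at *Hba-a1*. All 6 endothelial genes had both kinds, 16 opened and 50 closed peaks, 23 of the closed ones at *Cdh5*. Of 6 fibroblast genes, 2 had an opened and 3 a closed peak, with 10 opened and 13 closed peaks and 0 at *Col3a1* and *Pdgfrb*. The stretch of the genome nearest to the start sites was 657 kb for *Ptprc* and 692 kb for *Cdh5*, larger than that of *Maml3*. Neither gene had a promoter peak. The summed mean count of opened and closed peaks was 590.2 and 172.5 for leukocyte, 1334 and 0 for erythroid, 737.0 and 2889 for endothelial, and 376.8 and 1188 for fibroblast genes. *Tek* carried 1378 of the closed endothelial sum. Their part in the peaks of the 10 Notch genes was not tested.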

How the data were processed

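ATAC-seq was run on GFP high and GFP neg cells. Per the submitters' notes, the authors used Bowtie2 2.3.4.1, MACS2 and DESeq2 1.28.1 on mm10. Each peak carries a signal that the authors averaged across libraries after scaling read counts by size factors. The deposited fold changes, standard errors, test statistics and p-values of the authors' comparison were not used, so stricter limits on them were not run. Depth per library is unknown. Lanes are repeat runs of a library, not replicates.

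Peaks of both lists were pooled and assigned to the nearest protein-coding start site of the GENCODE basic annotation with pandas 2.3.3 and numpy 2.4.6 under Python 3.11.15, and plotted with matplotlib 3.10.9. Ties went to the first gene in alphabetical order. Motifs were exact matches in a 200 bp window around the centre of each peak in the GRCm38.p6 genome. In peaks narrower than that the window reached past the peak, so some matches lie outside it. Shares carry Wilson intervals at 95% for counting error only. No test was made. Assignment, motif search and intervals were tested on simulated data.

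Named were all 10 genes, each promoter peak, the highest opened and closed peak of each gene, and the 2 genes with most opened and most closed peaks in each pathway list. Some items that this rule or the marker lists cover are not reported here. Other named features were chosen after their values were seen. Members and lists were chosen with earlier results of these data known. 1 list name, *Tle5*, was matched through an older symbol at the same place in the RefSeq table. Alternatives covered assignment, distance, height, merging, promoter distance and motif windows.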

Additional observations from a re-analysis of the deposited data

How the results depend on the processing

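The number of peaks of the 10 genes depended on assignment: 29 with start sites of any gene type, since 69 of the 98 peaks were nearer to another start, 21 within 10 kb of a start and 26 at a mean count of at least 50. It stayed between 67 and 94 with a 100 kb limit, gene bodies, a mean count of at least 20 or merged neighbours. The opened share was 65.4% at a mean count of at least 50, where all listed peaks gave 64.4%, and between 45.7 and 52.4% under the other choices tried. Without *Maml3*, chosen after seeing the data, there were 48 peaks, 60.4% opened. Within 10 kb of a start, 47.6% of the member peaks were opened, beside 65.4% of all listed peaks.

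Promoter peaks numbered 10 within 3 kb, 5 with any base within 1 kb and 5 with the centre within 1 kb whatever the nearest start, the last chosen after seeing the data. Some single genes lost their peaks or turned. *Numbl* had 0 with start sites of any gene type or inside its body, *Mfng* 0 at a mean count of at least 20, *Pofut1* 0 at that limit or within 10 kb, *Numb* 0 at a mean count of at least 50, and *Rfng* 0 inside its body. *Lfng* had 1 opened and 0 closed peaks within 10 kb or inside its body. *Maml2* had 1 and 2 with any gene type, and *Maml3* 10 and 4 at a mean count of at least 50. In the central 100 bp the RBPJ core was in 5.10% of peaks (9.39% of all listed), TEAD in 10.2% (7.40%), forkhead in 7.14% (4.91%), the E-box in 6.12% (9.59%) and NKX2 in 4.08% (3.35%). In whole peaks the RBPJ core was in 18.4% (26.1% of all listed), TEAD in 18.4% (18.8%) and the E-box in 25.5% (23.6%). The longer RBPJ string was in 2.04% of central 200 bp windows (4.89%). Shorter windows hold fewer letters.

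No paired analysis was possible because the lists hold values pooled over libraries, and no replicate was left out. Depth per library is unknown, and the lists hold no peaks under the authors' limits.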
